A study of Mus musculus with 20 samples.

Results

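Ribosomal protein genes were followed across 20 microarrays of single pairs of mouse XY gonads, and the germ cell paralogue Rpl39l was set against the rest. The set was taken by name: gene probes called Rpl or Rps followed by a number, with Rplp0 to Rplp2 and Rpsa, without the Rps6k kinases, and with the brightest probe on average in the gonad channel standing for each gene. This gave 85 genes, measured by 144 probes, of 27670 genes or names on the array. Of the 85, 82 carried such a name in the files, and 3 (Rpl39l, Rpl34 and Rps4l) were found through the accession or an older name of their probe. There were 46 proteins of the large subunit, 31 of the small subunit, 7 paralogues and Rps19bp1, which is named for a protein that binds Rps19 and is no part of the ribosome. All 85 were among the 23845 genes tested, and each was well above background in both channels on all 20 arrays.

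Groups of 5 arrays each came from C57BL/6J, from 129S1/SvImJ and from hybrids of both directions, labelled (B6x129S1)F1 and (129S1xB6)F1. The labels do not say which parent in a cross name was the mother. Each array held the RNA of 1 pair of gonads from embryonic day 11.5 (17 to 21 tail somites), cut away from the mesonephroi, with 200 to 450 ng of RNA amplified and labelled with Cy5. The Cy3 channel held a pool of gonads (4 pairs XY and 3 pairs XX) and of whole embryos (4 that were XY and 2 that were XX), all from a cross of Sox9-ECFP (C57BL/6J) with CD-1 mice. Values below are log2 ratios of the gonad channel over this pool, so a value of 0 means the same signal as the pool, and a difference between groups is a difference of such log2 ratios. No array had the dyes swapped, so gonad against pool and Cy5 against Cy3 cannot be told apart, while differences between groups are free of this. In bulk gonads, fewer cells of a type and less RNA per cell cannot be told apart either. Samples came from several litters, which the labels do not assign to arrays.

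Ribosomal proteins form the large and small subunit around the ribosomal RNAs, and every dividing cell makes them in nearly equal amounts from many separate genes. A few have paralogues that are used in particular tissues. Rpl39 is a small, basic protein that lines the tunnel through which the new peptide leaves the large subunit, and Rpl39l takes its place in male germ cells. At this stage the gonad is a mixture of somatic cells and of primordial germ cells that have just arrived.

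The probes that carry the findings are shown by their first 30 bases of 60, 5′ to 3′, because the results for these genes differ between probes of the same gene.
Rpl39l, brightest probe: ctgtgctttagtgagttcattcagcagttc
Rpl39l, other probe: tcatctgcataatagacaagtattctatca
Rpl11, brightest probe: gttccagcagaagtacgatggaatcatcct
Rpl11, other probe: tggagtcagaattctcagacgttagtcttt
Rps13, brightest probe: gagtcatccacagcctctgctctagtggca
Rps13, other probe: tccagtcaccaagagagttgatgggtcctg
Over their whole 60 bases, the probe pairs of Rpl39l, Rpl11 and Rps13 shared no run longer than 6, 5 and 5 bases, so each pair reads different stretches. Ribosomal protein genes have many near-identical processed copies in the genome, and which copies each probe could also bind was not analysed here.

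Against the pool, and at the brightest probe of each gene, Rpl39l stood far above every other gene of the set. Its log2 ratio averaged 4.16 ± 0.91 (SD over 20 arrays) and was the highest of the 85 on each of the 20 arrays. Rps4l, an autosomal paralogue of Rps4x, was second with 1.49 ± 0.22, and Rps26, a small subunit protein at the messenger RNA exit, was lowest with -0.97 ± 0.42. On single arrays the second gene was Rps4l on 17 arrays and reached at most 2.11. The median over the 85 genes lay between -0.12 and 0.34 per array. The rank of Rpl39l on every array holds for its brightest probe, which was chosen by its gonad signal. Its other probe, a dim one, averaged 1.33 in each strain, 2.29 in (B6x129S1)F1 and 2.55 in (129S1xB6)F1, nearer to Rps4l. A ratio is large where the pool is dim as well as where the gonad is bright, and these values are a description without a test.

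**Figure D1:**
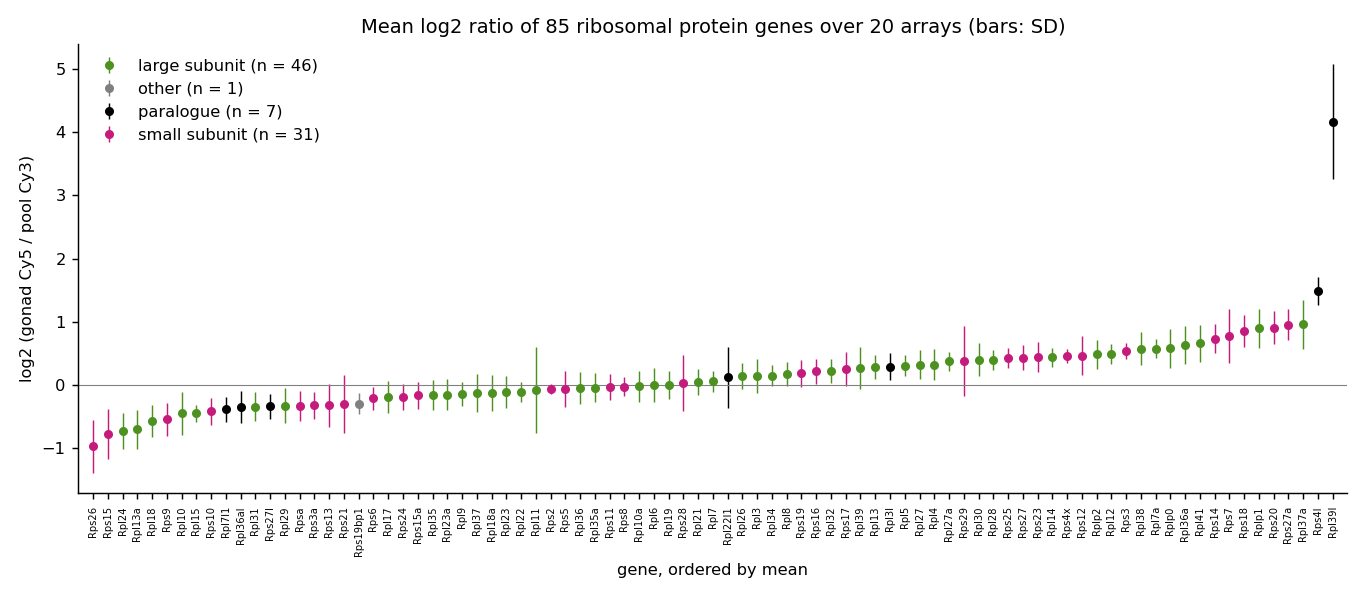
Mean log2 ratio of gonad over pool (vertical axis) for each of the 85 genes, ordered by that mean, with the SD over 20 arrays as bars and colours for large subunit, small subunit, paralogues and Rps19bp1. Each gene is shown at its brightest probe, where Rpl39l at 4.16 stands apart from a band that runs from -0.97 for Rps26 to 1.49 for Rps4l.

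The other paralogues lay nearer to the pool. Rpl3l, known from heart and skeletal muscle, averaged 0.29, beside 0.14 for Rpl3. Rpl22l1, which can stand in for Rpl22, averaged 0.12 beside -0.11. Rpl7l1 averaged -0.39 beside 0.06 for Rpl7. Rpl36al averaged -0.35 beside 0.63 for the X-linked Rpl36a, and Rps27l, a gene that responds to p53, -0.34 beside 0.43 for Rps27. Rps4l, at 1.49, lay above Rps4x, at 0.46. Rpl39 itself averaged 0.27 ± 0.34 (SD over 20 arrays). These are ratios to the pool for different probes, not amounts of RNA.

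Rpl39l was lowest in C57BL/6J, intermediate in 129S1/SvImJ and highest in both hybrids. In C57BL/6J the log2 ratio was 3.54 in H1, 2.97 in H2, 3.19 in H3, 2.37 in H4 and 3.09 in K2. In 129S1/SvImJ it was 4.15 in A3, 4.15 in A4, 4.29 in A6, 4.24 in D4 and 2.79 in G3. Of these 5 arrays, 4 lay above every C57BL/6J array, and G3 lay among them.
In (B6x129S1)F1 it was 4.95 in C2, 4.54 in C3, 5.35 in C4, 5.16 in E1 and 4.45 in F2. In (129S1xB6)F1 it was 4.63 in L1, 4.07 in L2, 4.71 in L4, 5.11 in M3 and 5.55 in M6. All 10 hybrid arrays lay above all 5 C57BL/6J arrays, and 9 of the 10 above all 129S1/SvImJ arrays.

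C57BL/6J averaged 3.03 ± 0.42 (SD, n = 5) and 129S1/SvImJ 3.92 ± 0.64, while (B6x129S1)F1 averaged 4.89 ± 0.39 and (129S1xB6)F1 4.81 ± 0.56. Differences between groups were tested with limma over all genes at an adjusted p under 0.05, with the standard error (SE) of that fit. The mean of the hybrids was 3.53-fold higher than C57BL/6J (log2 difference 1.82 ± 0.26 SE, limma adjusted p = 2.9e-04). It was also 2.59-fold higher than the mean of both strains, the mid-parent (1.37 ± 0.21, limma adjusted p = 0.0033). Against 129S1/SvImJ the hybrids lay 0.93 ± 0.26 higher, which did not pass (limma adjusted p = 0.087), and which passed without array L2 (1.02, limma adjusted p = 0.044). Over all fits without 1 array this difference ran from 0.65, without G3, to 1.02 (limma adjusted p from 0.044 to 0.27). C57BL/6J lay 0.89 ± 0.30 below 129S1/SvImJ, which did not pass (limma adjusted p = 0.10). Without array G3 that difference was -1.17 and passed (limma adjusted p = 0.0084). Over all fits without 1 array it ran from -1.17 to -0.73 (limma adjusted p from 0.0084 to 0.23). The reciprocal hybrids differed by 0.07 ± 0.30 (95% interval -0.55 to 0.70), less than the spread within either cross. The hybrid comparisons share their arrays, and the single-strain ones share arrays with the strain comparison.

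**Figure D2:**
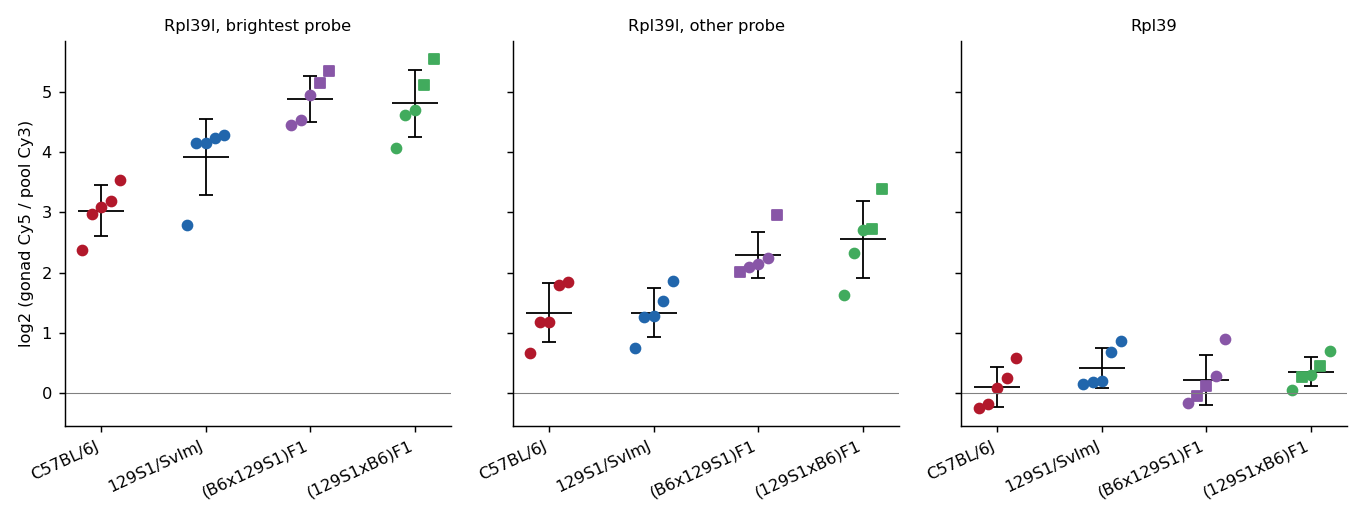
Log2 ratio of gonad over pool (vertical axis) on each array in the 4 groups for the brightest probe of Rpl39l, its other probe and Rpl39, with squares for the 4 arrays of slide 5 and black lines for mean and SD. On the brightest Rpl39l probe the hybrids sit between 4.07 and 5.55 and C57BL/6J between 2.37 and 3.54. Rpl39 runs from -0.25 to 0.90 over all arrays, and its groups overlap.

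The slide moved with this result. The arrays came on 5 slides, of which slide 1 held only strain arrays and slide 5 only hybrid arrays. The 4 highest Rpl39l values, in M6, C4, E1 and M3, were those of slide 5, where 80.4% of gene probes on average were well above background against 84.2% to 86.9% on slides 1 to 4. On slides 2, 3 and 4, with every group on each, hybrids minus C57BL/6J was 1.61, 1.21 and 2.41, and hybrids minus mid-parent 1.02, 0.62 and 2.21. With slide as a block both calls were kept, at 1.73 (limma adjusted p = 9.5e-04) and 1.28 (limma adjusted p = 0.027), and the strain difference of -0.89 was then called as well (limma adjusted p = 0.029). Fitted on the 12 arrays of slides 2 to 4 with slide as a block, hybrids minus mid-parent was 1.28 and not called (limma adjusted p = 0.35). Hybrids minus C57BL/6J, on the slides that held both, was 1.75 and not called either (limma adjusted p = 0.076). Within slides 1 to 4, C57BL/6J minus 129S1/SvImJ was -0.83, -1.18, -1.20 and -0.42, below 0 on each.

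At the other probe of Rpl39l both hybrids again lay above both strains on average, but the strains did not differ in mean. It read 1.85, 1.19, 1.79, 0.67 and 1.18 in C57BL/6J arrays H1, H2, H3, H4 and K2. It read 1.28, 1.53, 1.26, 1.86 and 0.75 in 129S1/SvImJ arrays A3, A4, A6, D4 and G3. The strains overlapped throughout, with means of 1.33 ± 0.49 and 1.33 ± 0.41 and a difference of -0.00. In the hybrids it ran from 2.01 to 2.95 in (B6x129S1)F1 and from 1.64 to 3.39 in (129S1xB6)F1, so that hybrids minus mid-parent was 1.09, beside 1.37 at the brightest probe. This probe was dim: it was well above background on 19 arrays in Cy5 but only on 11 in Cy3, so its ratios are less certain. In Cy3 it passed on 1 of 5 C57BL/6J arrays but on all 5 129S1/SvImJ arrays, so the strain difference of -0.00 sets a pool signal near background against a measured one. In the hybrids it passed in Cy3 on 3 of 5 (B6x129S1)F1 arrays and on 2 of 5 (129S1xB6)F1 arrays. The 1.09 over mid-parent therefore has the same limit. With the probes averaged that passed the Cy5 background filter, the dim one included, Rpl39l kept its calls in the hybrids. It lay 1.23 over mid-parent (limma adjusted p = 0.0062) and 1.45 over C57BL/6J (limma adjusted p = 0.0017). The strain difference came to -0.45 (limma adjusted p = 0.51). All of these averaged values rest in part on the dim probe.

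For Rpl39, the X-linked partner of Rpl39l, the groups were close together. C57BL/6J averaged 0.10 ± 0.34 (SD, n = 5) and 129S1/SvImJ 0.42 ± 0.33, while (B6x129S1)F1 averaged 0.21 ± 0.42 and (129S1xB6)F1 0.35 ± 0.24, and the groups overlapped. Hybrids minus C57BL/6J was 0.19 ± 0.18, with a 95% interval of -0.18 to 0.55, and was not called. The difference between the genes was tested itself, in a test added after the values were seen: the log2 ratio of Rpl39l minus that of Rpl39 was taken per array and compared by exact permutation. It averaged 2.94 ± 0.66 (SD, n = 5) in C57BL/6J, 3.51 ± 0.58 in 129S1/SvImJ and 4.57 ± 0.52 (n = 10) in the hybrids. The hybrids exceeded C57BL/6J by 1.63, with every hybrid array above every C57BL/6J array (two-sided exact permutation p = 0.000333, which no split of 10 and 5 arrays can undercut; adjusted p = 0.0013 over 4 comparisons). They exceeded 129S1/SvImJ by 1.06 (exact permutation p = 0.0030, adjusted p = 0.0060). Without slide 5, which holds 4 hybrid arrays, these differences were 1.28 (exact permutation p = 0.0022, adjusted p = 0.0043) and 0.71 (exact permutation p = 0.011, adjusted p = 0.011). Within slides 2, 3 and 4 the hybrids lay 1.09, 0.88 and 2.39 above C57BL/6J, but 0.35, 0.050 and 1.55 above 129S1/SvImJ, whose array on slide 4 is G3. Neither the strains (-0.57, exact permutation p = 0.18, adjusted p = 0.24) nor the reciprocal hybrids (0.21, exact permutation p = 0.60, adjusted p = 0.60) passed.

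The start regions of the paralogues were read from the RefSeq promoter table (GRCm38.p6), which had entries for 63 of the 85 genes. The 75 bases before the annotated start are printed, with the CG dinucleotides, the sites of DNA methylation, in capitals.
Rpl39l, chr16:10170153-10170227, + strand: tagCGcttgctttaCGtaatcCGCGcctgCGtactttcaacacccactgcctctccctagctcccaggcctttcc
Rpl39, chrX:37085223-37085297, - strand: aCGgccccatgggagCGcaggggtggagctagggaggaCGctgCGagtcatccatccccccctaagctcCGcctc
Each stretch holds 5 CG, and each whole entry of 300 bases (250 before the start and 50 after) holds 17. The median was 21 over the 75 entries of the set and 7 over all 32851 entries. A transcript start of C followed by 4 bases that are each C or T, the form of the TOP messenger RNAs to which ribosomal protein genes belong, stood at the annotated start in 13 of 75 entries (17.3%), against 2.51% of all entries, and in neither Rpl39l nor Rpl39. Annotated starts can be off by some bases, so the absence of these letters says nothing about the true start.

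Genes of germ cells were among those most like Rpl39l over the 20 arrays. Likeness was the Pearson correlation of log2 ratios after group means were removed, which uses all arrays and the hybridisation they share. Among the 8 closest of 23774 genes were Tex19.1 (r = 0.93), which restrains retrotransposons in germ cells, and Smc1b (r = 0.90), a cohesin subunit of meiosis, followed by Rbmxl2 (r = 0.88), an RNA-binding protein of the testis. Next came Fbxo15 (r = 0.87), an F-box gene of pluripotent cells, Fkbp6 (r = 0.87), a co-chaperone in the silencing of transposons, Cpsf4l (r = 0.86) and Rhox6 (r = 0.84), an X-linked homeobox gene. Only 24 genes exceeded 0.8. The other ribosomal protein genes had a median r of 0.11, with Rpl3l highest at 0.60 and Rpl39 at 0.11.

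Several of the 8 also differed in the hybrids. Tex19.1 averaged 3.20 in C57BL/6J and 3.89 in 129S1/SvImJ, against 4.75 in (B6x129S1)F1 and 4.82 in (129S1xB6)F1, and was called over mid-parent (1.24 ± 0.17, limma adjusted p = 6.8e-04). Smc1b (0.96 ± 0.19, limma adjusted p = 0.029) and Cpsf4l (0.78 ± 0.16, limma adjusted p = 0.045) were called as well, and Rbmxl2 was not (0.94 ± 0.21, limma adjusted p = 0.064). The promoter table held 7 entries for 5 of these 8 genes. The letters CACGTG, a site read by basic helix-loop-helix factors and the same on both strands, occurred in 4 of the 7 entries, from 3 genes (Fkbp6, Rbmxl2 and Cpsf4l), against 7.15% of all entries, and not in that of Rpl39l. TCCCGCC on either strand, a core read by E2F factors, occurred in 2 of the 7 against 11.3% of all entries, and not in Rpl39l. These are matches of letters in a few entries, not sites.

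Germ cell markers were higher in the hybrids too. Of 19 listed genes 18 were on the array and tested, and over them the mean log2 ratio per array ran from 0.90 to 1.49 in C57BL/6J and from 1.15 to 1.62 in 129S1/SvImJ. The hybrids ran higher, from 1.58 to 2.11 in (B6x129S1)F1 and from 1.72 to 2.10 in (129S1xB6)F1. The slide moved with this too: the 4 hybrid arrays of slide 5 held the highest means (1.99 to 2.11), and the other 6 ran from 1.58 to 1.79, with C3 below the 129S1/SvImJ array D4 (1.62). Within slides 2, 3 and 4 the hybrids lay 0.47, 0.29 and 0.72 above mid-parent. Over mid-parent 17 of the 18 lay above 0, with a median of 0.43, and 4 were called, beside 0.31% of all genes tested: Ddx4 (1.20), the germ cell helicase, Sox2 (1.00), Mael (0.89), a transposon-silencing factor, and Dppa5a (0.87). Over C57BL/6J 5 were called, all higher, beside 2.1% of all genes tested, led by Dazl (2.51), an RNA-binding protein that licenses germ cells for gamete formation. Over 129S1/SvImJ 2 were called, Sox2 (1.01) and Ddx4 (1.31), beside 1.62% of all genes tested, with a median of 0.32. Sox2 was far below the pool, at a mean of -3.03. Between the strains none was called by limma, although 5 of the 18 had an unadjusted p under 0.05, beside 3531 of all 23845 genes tested. The part that the number of germ cells has in the Rpl39l result was not tested.

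Across arrays Rpl39l was correlated with the mean of the germ cell markers, though not with each of them. Over the 20 arrays Pearson's r was 0.95 and Spearman's rho 0.93 (permutation test, two-sided, p = 1e-05 for each, the smallest that 100000 resamples can give). Without H2 and H4, the arrays farthest from the median of the marker mean, r was 0.93. With group means removed and arrays resampled within groups, r was 0.86 (permutation p = 1e-05), and with slide means removed too it was 0.69 (permutation p = 0.0016). The resampling for that last value was within groups too and took no account of slide, so its p is approximate. All 4 settings, with normexp ratios as the fourth, passed after adjustment (adjusted p = 0.0016 or less). Taken singly, with group means removed, the 18 markers had a median r of 0.50 with Rpl39l, from 0.84 for Mael to -0.27 for Tdrd7, and 3 lay below 0. Without slide 5, over 16 arrays, r with the marker mean was 0.92 (permutation p = 1e-05), and without G3 it was 0.95. Both kept the group means and were resampled across groups, as were the first value over 20 arrays and the normexp setting. Differences between groups therefore enter these values and their p. A slide holds only 4 arrays, too few for a correlation within it.

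**Figure D3:**
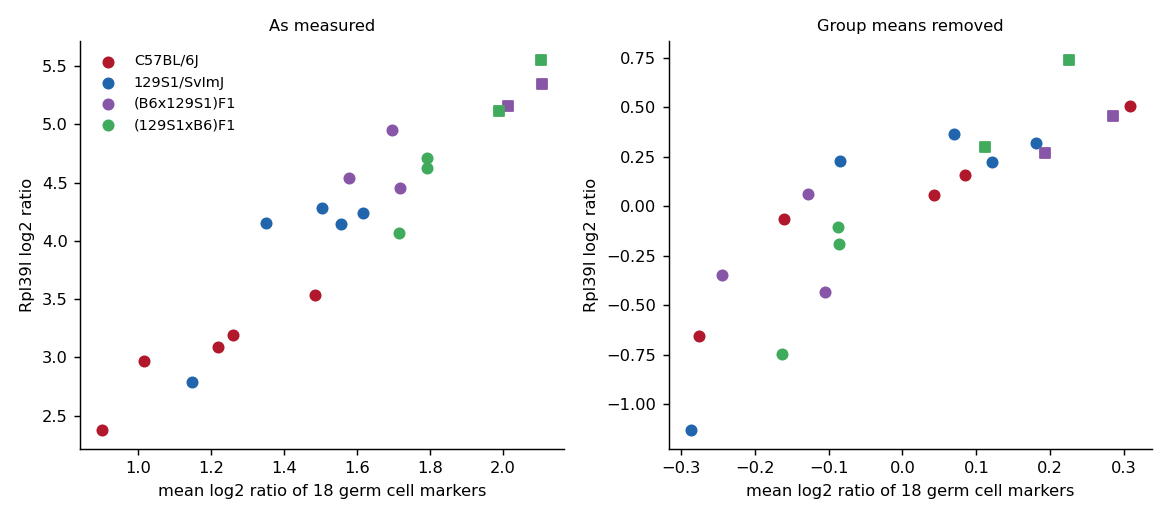
Rpl39l log2 ratio (vertical axis) against the mean log2 ratio of 18 germ cell markers (horizontal axis), 1 point per array coloured by group with squares for slide 5, as measured on the left and with group means removed on the right. The points rise together, with r of 0.95 on the left and 0.86 on the right, and the 129S1/SvImJ array G3 has a low value on both axes.

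Few ribosomal protein genes were called between the strains. Of 85 genes 2 were called, Rpl11 and Rps13, both higher in C57BL/6J. Of all genes tested 5.52% were called, 3.22% higher and 2.3% lower. The median difference over the 85 was -0.10, beside 0.01 over all genes tested. Of the 85, 23 lay above 0 and 62 below, beside 12758 above and 11087 below over all genes tested. Genes of the set share array effects, so these signs are not independent. Within slides 1 to 4 the median over the 85 was -0.19, -0.03, -0.17 and 0.18. For the same 2 genes the arrays of the strains did not overlap, as for 5.23% of all genes tested. Setting each array's median to 0 left the same 2 calls. The large subunit (46 genes, median -0.10) and the small subunit (31 genes, median -0.11) had 1 call each. The 4 X-linked genes, Rpl10, Rpl39, Rpl36a and Rps4x, had differences from -0.40 to -0.12, and none was called.

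Rpl11, which with Rpl5 and the 5S RNA forms a free particle that binds Mdm2, showed the largest difference of the set at the brightest probes. Its log2 ratio was 0.47, 0.49, 0.47, 0.82 and 0.90 in C57BL/6J arrays H1, H2, H3, H4 and K2. It was -1.09, -1.16, -0.54, -1.46 and -1.22 in 129S1/SvImJ arrays A3, A4, A6, D4 and G3. The hybrids lay between the strains without touching either, from -0.12 to 0.43 in (B6x129S1)F1 and from -0.12 to 0.20 in (129S1xB6)F1. C57BL/6J was 3.30-fold higher than 129S1/SvImJ (1.72 ± 0.15, limma adjusted p = 1.4e-07). The hybrids were 2.22-fold above 129S1/SvImJ (1.15 ± 0.13, limma adjusted p = 1.7e-05) and 1.49-fold below C57BL/6J (-0.57 ± 0.13, limma adjusted p = 0.018). The last call was lost without array H4 (-0.53, limma adjusted p = 0.054) or K2 (-0.51, limma adjusted p = 0.061). It was lost too with the letter of the array name, whose meaning the labels do not give, as a random block (-0.60, limma adjusted p = 0.057) and on slides 2 to 4 with slide as a block (-0.62, limma adjusted p = 0.22). Over mid-parent the hybrids lay 0.29 ± 0.11 higher, which was not called (limma adjusted p = 0.41).

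The other probe of Rpl11 showed much less. It ran from 0.19 to 0.98 in C57BL/6J and from -0.03 to 0.52 in 129S1/SvImJ, so the strains overlapped, and the difference of means was 0.27. The mean of both probes was 1.00 higher in C57BL/6J (limma adjusted p = 1.9e-04), and hybrids minus C57BL/6J was then not called (-0.34, limma adjusted p = 0.26). A base that differs between the strains under 1 probe was not tested as a source of this.

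Rps13, a small subunit protein, differed in opposite directions at its probes. At the brightest probe the log2 ratio was -0.11, -0.22, -0.11, 0.36 and -0.15 in C57BL/6J arrays H1, H2, H3, H4 and K2. It was -0.65, -0.85, -0.50, -0.90 and -1.01 in 129S1/SvImJ arrays A3, A4, A6, D4 and G3, all below every C57BL/6J array. C57BL/6J was 1.66-fold higher (0.73 ± 0.13, limma adjusted p = 8.5e-04), and the hybrids were 1.47-fold above 129S1/SvImJ (0.56 ± 0.11, limma adjusted p = 0.0087). The latter was lost with slide as a block (0.59, limma adjusted p = 0.064), and with both probes averaged it came to 0.11 (limma adjusted p = 0.67). At the other probe C57BL/6J averaged -0.82 ± 0.25 (SD, n = 5) and 129S1/SvImJ 0.03 ± 0.44, a difference of -0.85, again without overlap between the strains. With both probes averaged the strain difference of Rps13 was -0.06 and not called (limma adjusted p = 0.90).

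**Figure D4:**
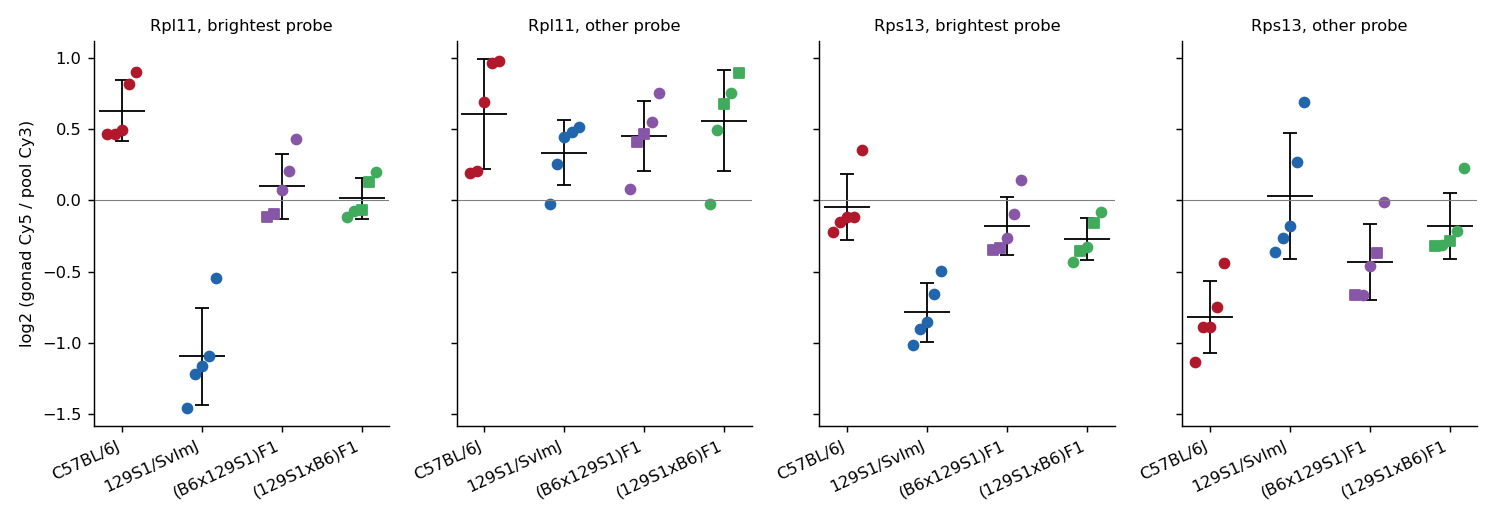
Log2 ratio of gonad over pool (vertical axis) on each array in the 4 groups for both probes of Rpl11 and of Rps13, with squares for slide 5 and black lines for mean and SD. At the brightest probes C57BL/6J lies above 129S1/SvImJ for both genes, while the other probe of Rpl11 overlaps and that of Rps13 is lower in C57BL/6J.

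Probes of the same gene did not always agree in the set, and the same counts over all genes on the array are not given here. The sign is uncertain where a difference is small beside the SE, which had a median of 0.146 over the set. Of 44 genes with more than 1 probe, 26 had strain differences of 1 sign at all their probes, and 9 had probes more than 0.5 apart, with a median spread of 0.17. Rps3a was at -0.12 with its brightest probe and -1.79 with its other, a spread of 1.67, and Rps6 at 0.05 and 1.22. Rps25 was at -0.09 and 0.85. By contrast Rpl29, which had the third largest difference upward (0.41 ± 0.16, limma adjusted p = 0.17), lay between 0.29 and 0.66 at its 4 probes, and Rpl10 at -0.40 at both. With all probes averaged that passed the Cy5 filter, 4 genes of the set were called between the strains: Rpl11, Rps25, Rps3a and Rps6. The share of all genes called in that fit is not given here, so this count has no share to be set against.

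The remaining genes at the ends of the strain comparison were not called. Below 0 these were Rps26 (-0.43 ± 0.25), Rpl10 (-0.40 ± 0.19), which sits near the peptidyl transferase centre, Rplp0 (-0.34 ± 0.18), the base of the stalk, and Rps21 (-0.34 ± 0.27). Above 0 they were Rpl8 (0.21 ± 0.12) and Rpl28 (0.19 ± 0.10). Their adjusted p in limma ran from 0.34 for Rpl10 to 0.68 for Rps21.

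No gene of the set was called between the reciprocal hybrids by limma, where 0.00839% of all genes tested were called (0.00419% in each direction). None of the 85 had an unadjusted p under 0.05, beside 876 of all 23845 genes tested. The differences ran from -0.20 for Rps21 to 0.28 for Rps9, with a median of 0.04 over the 85 and 0.02 over all genes tested. Rpl37 was at 0.25 ± 0.18 and Rpl36al at 0.22 ± 0.16, and at the other end Rpl39 was at -0.14 ± 0.20 and Rps23 at -0.13 ± 0.14. XY embryos take their X from the mother, so reciprocal crosses carry it from different strains. The X-linked genes lay between -0.14 and 0.06.

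Against mid-parent, 1 gene of the set was called, Rpl39l, beside 0.31% of all genes tested (0.302% higher). Without Rpl39l the highest were Rpl22l1 (0.38 ± 0.20) and Rps7 (0.34 ± 0.17), a second protein that binds Mdm2, and the lowest were Rpl41 (-0.23 ± 0.13), Rps15 (-0.22 ± 0.17) and Rpl3 (-0.20 ± 0.12). The median over the 85 was 0.01, as over all genes tested, and 0.15 with slide as a block. Against C57BL/6J 2 of 85 were called, Rpl39l higher and Rpl11 lower, beside 2.1% of all genes tested (1.16% higher and 0.939% lower), and the median was 0.05. For these 2 the arrays did not overlap, as for 1.35% of all genes tested. Against 129S1/SvImJ 2 of 85 were called, Rpl11 and Rps13, both higher, beside 1.62% of all genes tested (1.01% higher), and the median was -0.04, which turned to 0.091 with slide as a block. For these 2 as well the arrays did not overlap, against 1.14% of all genes tested. The F test of limma across the 4 groups called Rpl11, Rpl39l and Rps13, 3 of 85, beside 3.75% of all genes tested.

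**Figure D5:**
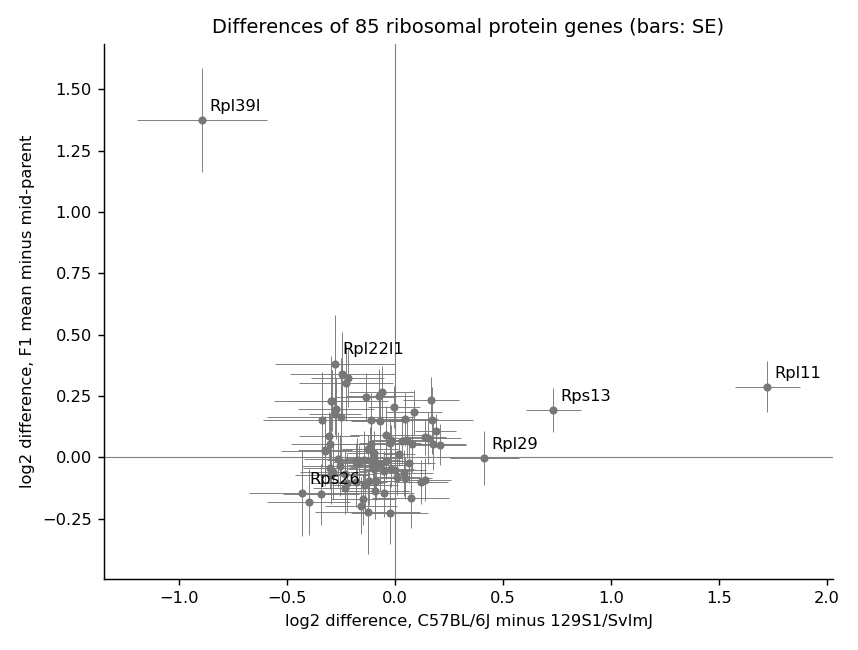
Log2 difference of the hybrid mean minus mid-parent (vertical axis) against the log2 difference C57BL/6J minus 129S1/SvImJ (horizontal axis) for the 85 genes, with SE of the fit as bars. Rpl39l stands alone at the upper left (-0.89 and 1.37), Rpl11 and Rps13 lie to the right, and the other 82 genes lie within -0.43 to 0.41 and -0.23 to 0.38.

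In the strain comparison the median SE of the fit was 0.146 over the set, close to 0.148 over all genes tested. Within the set, Rpl39l and Rpl11 varied most between arrays. The SD over 20 arrays had a median of 0.24, with Rpl39l at 0.91, Rpl11 at 0.68 and Rps29, a zinc-binding protein of the small subunit, at 0.55 the widest and Rps2 at 0.079 the narrowest. Part of that variation was shared: between pairs of genes the median correlation over the 20 arrays, with group means removed, was 0.26 over 3570 pairs, on values that share dye and array effects. Genes with the least in common with the rest were Rpl4, at a median r of -0.30, and Rps7, at -0.19.

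Few other genes of ribosome production and translation were called between the strains, where 5.52% of all genes tested were called. In that comparison 3531 of all 23845 genes tested had an unadjusted p under 0.05. None of 31 assembly factors of the ribosome was called by limma, while 3 had an unadjusted p under 0.05 around a median of -0.12, with 25 of the 31 below 0, such as Pes1 (-0.23 ± 0.09) of the large subunit pathway. Of 12 genes of RNA polymerase I, which makes the ribosomal RNA, 1 was called, Cd3eap, a polymerase subunit (-0.81 ± 0.22, limma adjusted p = 0.039). None of 28 translation factors and other TOP genes was called, while 2 had an unadjusted p under 0.05 around a median of -0.08. Among them Pabpc1, the cytoplasmic poly(A)-binding protein, was at -0.66 ± 0.25.
Of 78 mitochondrial ribosomal proteins 3 were called: Mrps12 (0.87 ± 0.17, limma adjusted p = 0.0032) and Mrpl9 (0.34 ± 0.08) higher and Mrpl3 (-0.60 ± 0.13) lower in C57BL/6J. In the hybrids against mid-parent none of these lists had a call by limma. There 4 of 31, 0 of 12, 1 of 28 and 3 of 78 genes had an unadjusted p under 0.05, beside 2189 of all 23845 genes tested.

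Markers of the gonad and of other cell types were read on the same arrays. The mean of 10 genes of supporting and somatic gonad cells lay between 1.52 and 2.12 on all arrays, with Wt1 at a mean of 4.31 and Gata4 at 2.57, and none of the 10 was called in any comparison by limma, although 4 between the strains and 2 against mid-parent had an unadjusted p under 0.05. Among 10 endothelial, 9 erythroid and 10 macrophage genes none was called by limma between the strains or against mid-parent. Between the strains 5, 0 and 3 of them had an unadjusted p under 0.05, and against mid-parent 1, 0 and 0. Of 9 genes of mesonephros and ducts, Emx2 (1.04 ± 0.24) was called higher and Lhx1 (-0.61 ± 0.14) lower in C57BL/6J. Of all genes tested 5.52% were called between the strains and 0.31% against mid-parent. Among all 23845 genes tested, 3531 between the strains and 2189 against mid-parent had an unadjusted p under 0.05. In the hybrids against C57BL/6J 1 of the 9 was called, higher, beside 2.1% of all genes tested. On all arrays 78.4% to 88.3% of gene probes were well above background in the gonad channel and no spot was saturated, and the number of arrays limits the precision.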

How the data were processed

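The 2-colour Agilent arrays were read by the authors with Agilent Feature Extraction 9.1.3.1, per the file headers, which deposited for each spot a background-subtracted, dye-normalized intensity per channel. The authors' deposited log2 ratios (r = 0.935 to 0.960 with those used here) were an alternative. Here log2 of the Cy5 over the Cy3 intensity was taken, control spots and outlier flags were left out, and spots of a probe were averaged. A gene was tested if, in some group, its probe passed the background flag in Cy5 on 4 or 5 of 5 arrays. Differences were tested with limma 3.58.1 in R 4.3.3 over all 20 arrays and 4 groups, with Benjamini-Hochberg adjustment over 23845 genes. Probes were named by accession, then by symbol or older name, from RefSeq. Named genes were those called in a comparison, the ends of each comparison, paralogues with their partners, and the 8 genes most like Rpl39l; probe disagreements (Rps3a, Rps6, Rps25) and extremes of spread or correlation (Rps29, Rps2, Rpl4, Rps7) were chosen after their values were seen. From the 8 genes, 1 is not reported here, nor is 1 probe sequence. The members, lists and rules were chosen with earlier results of these data known. Other background corrections, centring, filters, probe averaging, slide and letter as blocks, and leaving out each array were tried. The fit was tested on simulated data. P-values measure the spread between single gonad pairs.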

Additional observations from a re-analysis of the deposited data

Results flagged for a closer look

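In 10 of 140 groups of 5 arrays tested, 1 array lay far from the other 4 by Dixon's ratio of gap to range, and chance gives about 1 in 20 such groups. In C57BL/6J, array H4 stood apart for Rpl3 (log2 ratio -0.65, nearest other 0.31), Rps13 (0.36, nearest other -0.11) and Rps9 (-1.06, nearest other -0.53), and array K2 for Rpl37 (-0.66). In 129S1/SvImJ, array G3 stood apart for Rpl39l (2.79, nearest other 4.15) and Rps4l (0.97, nearest other 1.40). In (B6x129S1)F1, array C3 stood apart for Rpl36a (1.28) and array C4 for the other probe of Rpl39l (2.95). In (129S1xB6)F1, array L1 stood apart for Rps15 (-0.26) and for the other probe of Rps13 (0.23). Arrays H4, G3 and L1 were all on slide 4.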

How the results depend on the processing

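No paired analysis was possible because the labels number no replicates across groups. No spot was saturated, so leaving saturated probes out was not run. The alternatives for Rpl11 and Rps13, the correlations without slide 5 or G3, and the test of Rpl39l against Rpl39, with and without slide 5, were chosen after seeing the data. Below, the cause of each change was not tested. Rpl39l between the reciprocal hybrids turned sign with normexp (-0.0082), no background subtraction (-0.047), all probes averaged (-0.096) and within slides 2 (-0.26) and 5 (-0.082), and without 1 array ranged from -0.11 to 0.26, with -0.04 among these. Between the strains Rpl39l was called without background subtraction (-0.75) and with slide as a block (-0.89), and ranged from -1.17 to -0.73 without 1 array. Hybrids minus 129S1/SvImJ was called with all probes averaged (1.01) and ranged from 0.65 to 1.02 without 1 array. On slides 2 to 4 with slide as a block, Rpl39l was not called against mid-parent (1.28) or C57BL/6J (1.75). Within slides 3 and 4 Rpl39l was 0.62 and 2.21 over mid-parent, 1.21 and 2.41 over C57BL/6J, and 0.019 and 2.00 over 129S1/SvImJ. Without 1 array it was 1.23 to 1.47 over mid-parent and 1.66 to 1.95 over C57BL/6J. Rps13 between the strains was -0.058 with all probes averaged. The genes of the set called between the strains were 4 with all probes averaged and 2 to 3 without 1 array. Against 129S1/SvImJ 1 was called with slide as a block, on all arrays or on slides 2 to 4, and 2 to 3 without 1 array. Against mid-parent and C57BL/6J 0 were called on slides 2 to 4, and against C57BL/6J 1 with the letter block and 1 to 2 without 1 array. In the main fit the shares of all genes tested were 5.52% between the strains and 1.62% against 129S1/SvImJ. They were 0.31% against mid-parent and 2.1% against C57BL/6J. Shares under the alternatives are not given here, so the counts of the set under them cannot be set against a share. The median over the 85 genes moved to 0.15 over mid-parent with slide as a block on all arrays or slides 2 to 4, and to 0.27 within slide 4. Over 129S1/SvImJ it moved to 0.091, 0.12, 0.11 (slide 2) and 0.32 (slide 4). Within slide 4 it was 0.18 between the strains and 0.18 over C57BL/6J, and within slide 3 it was 0.22 between the hybrids. Without 1 array these medians ranged from -0.15 to -0.03 (strains), 0.01 to 0.08 (reciprocal hybrids), -0.01 to 0.05 (mid-parent), 0.02 to 0.08 (C57BL/6J) and -0.07 to 0.02 (129S1/SvImJ). All genes called between the strains numbered 1316, and 869 with the letter block. Of 257 values under alternatives, apart from those without 1 array, 218 kept direction and side of the threshold or stayed within the spread, 22 moved, 8 lost and 3 gained a call, and 6 turned sign.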
